A study of Mus musculus with 18 samples.

Results

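The 10 autophagy core genes described here are Ulk1, Wipi1, Atg5, Atg7, Gabarap, Gabarapl1, Gabarapl2, Map1lc3a, Map1lc3b and Sqstm1. They were chosen by name as parts of the autophagy machinery and make up 10 of the 21831 genes listed for the macrophage transcriptome. All 10 were among the 13409 genes with enough counts to be tested. The cells were peritoneal macrophages of C57BL/6 mice aged 6 weeks, cultured after 1 mL of 3% thioglycollate, given 3 days before, had drawn them into the abdominal cavity, and their RNA was sequenced. After 4 h of attachment the cultures stood for 12 h with 20 µM PCN (pregnenolone 16α-carbonitrile), which activates the xenobiotic receptor PXR of the mouse, or with DMSO as the control. The groups were dMye_PCN (n = 6) and dMye_DMSO (n = 6), with PXR deleted in myeloid cells by genotype, and FF_PCN (n = 3) and FF_DMSO (n = 3), with PXR flanked by loxP sites. Neither the Cre line nor the number of animals or cultures behind the libraries is stated, and p-values therefore measure a spread between libraries that may be technical.

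Macroautophagy encloses cytoplasm in a double membrane that fuses with lysosomes, and macrophages use it to clear damaged organelles, bacteria and lipid droplets. The ULK1 kinase starts the process, WIPI proteins read the lipid PI3P on the growing membrane, and ATG7 and ATG5 act in the enzyme cascade that attaches ATG8 proteins to it. The ATG8 proteins of the GABARAP and LC3 subfamilies then draw in cargo through receptors such as SQSTM1 (p62), which is itself degraded with the cargo. Levels of mRNA, as measured here, give neither the lipid attachment of ATG8 proteins nor the flow of cargo to lysosomes.

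Library totals lay between 21993687 and 30228032 expected counts. All 10 macrophage markers were detected, and their summed level was 6170 to 6731 CPM (counts scaled by the library total) in dMye_PCN, 6698 to 8369 in dMye_DMSO, 7154 to 7647 in FF_PCN and 10080 to 10799 in FF_DMSO. Lyz2 was the most abundant of the 10, with means of 3273, 4060, 4392 and 7141 CPM in these groups, and Cd68 came next. The sum therefore mainly follows these genes. Nr1i2, the gene of PXR, had at most 3 counts in any library and was not tested, so the counts give no check of the deletion. The summed level of 4 Y-linked genes was 0.456 to 1.48 CPM in dMye libraries and 113 to 137 CPM in FF libraries. Sex therefore followed genotype, and genotype and sex cannot be told apart. In bulk RNA, fewer cells of a type and less RNA per cell cannot be told apart either.

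Sqstm1 and Gabarap were the most abundant of the 10 genes per length of exon, and Wipi1 the least. Sqstm1 (GRCm38 chromosome 11, 50199366 to 50210827, minus strand), the cargo receptor, averaged 568 ± 15.2 CPM per kilobase of exon in dMye_PCN, 551 ± 17.3 in dMye_DMSO, 609 ± 14.1 in FF_PCN and 509 ± 12.0 in FF_DMSO (SD, n = 6, 6, 3 and 3). Gabarap (chromosome 11, 69991143 to 69994951, plus strand) came next, at 484 ± 26.7, 491 ± 43.3, 462 ± 22.6 and 457 ± 3.25 CPM per kilobase in the same groups. Its libraries lay below all those of Sqstm1 in every group except dMye_DMSO, where both genes overlapped.

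Gabarapl1 (chromosome 6, 129533160 to 129542346, plus strand) followed at 136 ± 3.99 CPM per kilobase in dMye_PCN, 131 ± 3.12 in dMye_DMSO, 155 ± 2.26 in FF_PCN and 121 ± 6.48 in FF_DMSO. Map1lc3b (chromosome 8, 121590361 to 121598760, plus strand) stood between 30.9 and 33.5 CPM per kilobase as group means, and Atg5 (chromosome 10, 44268358 to 44364291, plus strand) between 27.0 and 28.8. In dMye_DMSO the libraries of Map1lc3b and Atg5 overlapped, and in the other 3 groups they did not. Map1lc3a (chromosome 2, 155276297 to 155278073, plus strand), Gabarapl2 (chromosome 8, 111940703 to 111953612, plus strand) and Atg7 (chromosome 6, 114643097 to 114860614, plus strand) lay together, with group means of 19.6 to 23.5 CPM per kilobase. Their order changed from group to group, and neighbours among these 3 genes mostly overlapped.

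Ulk1 (chromosome 5, 110784488 to 110810097, minus strand) had group means of 8.58 to 10.8 CPM per kilobase. Wipi1 (chromosome 11, 109573331 to 109611967, minus strand) had group means of 1.39 to 1.80, and rested on 463 to 1240 expected counts per group, against 135903 to 292981 for Sqstm1. Both genes were separated from their neighbours in every group. Of the 2 subfamilies of ATG8 genes, the most abundant GABARAP gene thus stood above the most abundant LC3 gene per length in all 4 groups. These lengths join the exons of all annotated transcripts, 7517 bases for Map1lc3b, 1844 for Gabarap and 2013 for Gabarapl1. Without length, group means were 233 to 252 CPM for Map1lc3b, 244 to 312 for Gabarapl1 and 843 to 905 for Gabarap. The transcripts present in the cells are not known, so the order per kilobase depends on the annotated lengths.

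**Figure D1:**
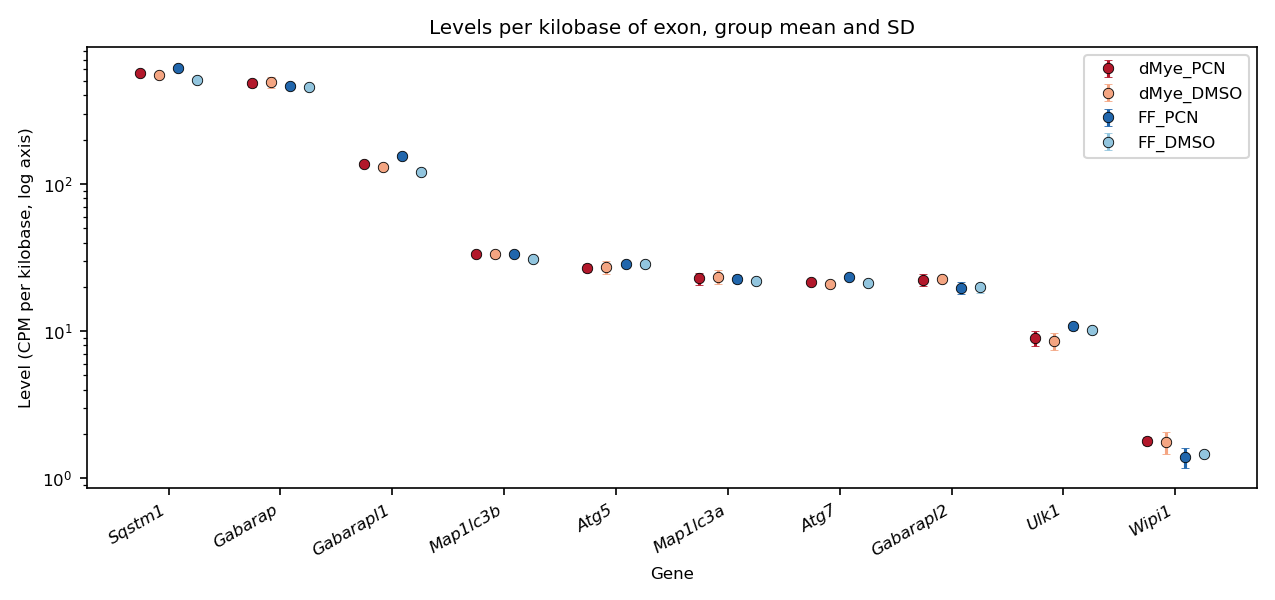
Levels of the 10 autophagy core genes per kilobase of exon, on a log axis, for dMye_PCN, dMye_DMSO, FF_PCN and FF_DMSO. Points are group means and bars the SD over 6, 6, 3 and 3 libraries. Lengths join the exons of all annotated transcripts of a gene. Sqstm1 and Gabarap have group means of 457 to 609 CPM per kilobase and Wipi1 of 1.39 to 1.80.

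Reads of some members could be shared with other genes. Of the distinct 50-base stretches of the annotated transcripts, 23.1% of Gabarapl1 also occurred in the transcripts of 1700101I11Rik, an antisense gene that overlaps it, and 15.5% of Sqstm1 in Mrnip, which overlaps it on the other strand. Mrnip had 16 to 59 counts per library. 1700101I11Rik was not listed under that symbol among the 21831 genes. Use of strand in the counting is not given in the sources used here, so reads of a gene and its antisense partner cannot be told apart. The shares were 12.2% for Gabarapl2 and 6.01% for Map1lc3b, mostly with pseudogene-like models, and at most 0.0445% for the other members. No member shared such a stretch with another member.

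PCN raised Gabarapl1 and Sqstm1 in FF macrophages, and no member fell. Gabarapl1, an ATG8 gene of the GABARAP subfamily, had 307, 316 and 312 CPM in FF_PCN, against 229, 253 and 249 CPM in FF_DMSO. All 3 PCN libraries lay above all 3 DMSO libraries, by at least the width of the DMSO group. The means were 312 ± 4.55 and 244 ± 13.0 CPM (SD, n = 3 each), a log2 fold change of 0.38 (SE 0.05, 1.30-fold, 95% interval 1.21 to 1.40, edgeR quasi-likelihood test, adjusted p = 4.8e-05).

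Sqstm1 had 2025, 2006 and 2096 CPM in FF_PCN, against 1681, 1755 and 1690 CPM in FF_DMSO. The groups were again separate, with the lowest PCN library above the highest DMSO library. The means were 2042 ± 47.4 and 1708 ± 40.2 CPM (SD, n = 3 each), a log2 fold change of 0.28 (SE 0.05, 1.21-fold, 95% interval 1.13 to 1.30, adjusted p = 7.6e-04 by the same test). Both calls held under all 26 alternatives of scaling, filter, tool and library, with adjusted p of at most 6.7e-04 for Gabarapl1 and 0.0051 for Sqstm1. Of all genes tested, 13.8% were called in this comparison, 6.82% higher and 6.98% lower under PCN, so 2 of 10 members is a count near the background and no result about the 10 as a group.

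Atg7 and Map1lc3b did not pass the test, although their libraries did not overlap. Atg7, the E1-like enzyme of the cascade, had 154, 170 and 162 CPM in FF_PCN and 150, 150 and 145 in FF_DMSO (log2 fold change 0.15, SE 0.05, adjusted p = 0.058). DESeq2 called Atg7 (adjusted p = 0.041), and its adjusted p over the other alternatives reached 0.31 without FF_PCN 2. Map1lc3b, which encodes LC3B, the protein most used as a marker of autophagosomes, had 249, 250 and 256 CPM in FF_PCN and 236, 229 and 233 in FF_DMSO. Its log2 fold change was 0.14 (SE 0.06, adjusted p = 0.15). For Map1lc3b, edgeR on the compared groups alone made a call (0.12, SE 0.04), with an adjusted p just under the threshold that rounds to 0.05. Over all alternatives the adjusted p of Map1lc3b reached 0.33. The groups did not overlap for 4 of the 10 members, where 33.4% of all tested genes met the same condition.

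The other 6 members had overlapping groups and adjusted p between 0.51 and 0.99 in FF. Ulk1 had 69.1, 73.9 and 66.9 CPM in FF_PCN and 61.8, 66.1 and 68.3 in FF_DMSO, with a log2 fold change of 0.12 (SE 0.10). Gabarap (0.04), Map1lc3a (0.06), Atg5 (0.03) and Gabarapl2 (0.00) had log2 fold changes near 0. Wipi1 had 7.19, 5.39 and 5.86 CPM in FF_PCN and 6.55, 6.68 and 6.22 in FF_DMSO, a log2 fold change of -0.05 with a wide 95% interval of 0.794 to 1.17 as a fold. The median log2 fold change was 0.09 over the 10 members and 0.01 over all genes tested. Of the GABARAP subfamily, Gabarapl1 was called while Gabarap and Gabarapl2 were not, and of the LC3 subfamily neither Map1lc3a nor Map1lc3b was called. Differences between genes were not tested.

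Markers of B cells and of macrophages also moved with PCN in FF. The summed level of the 8 B cell markers was 8.60 to 13.2 CPM in FF_PCN and 19.8 to 24.2 in FF_DMSO. Of the 8, 4 were called lower and none was at 0. Of the 10 macrophage markers, 7 were called lower and Marco higher. Of all genes tested, 6.98% were called lower and 6.82% higher. In other lists, 2 of 6 neutrophil markers tested and 1 of 10 mesothelial and fibroblast markers were called lower. None of the 6 T cell markers or the 4 mast cell and eosinophil markers tested was called. The part of these cells in the values of Gabarapl1 and Sqstm1 was not tested.

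**Figure D2:**
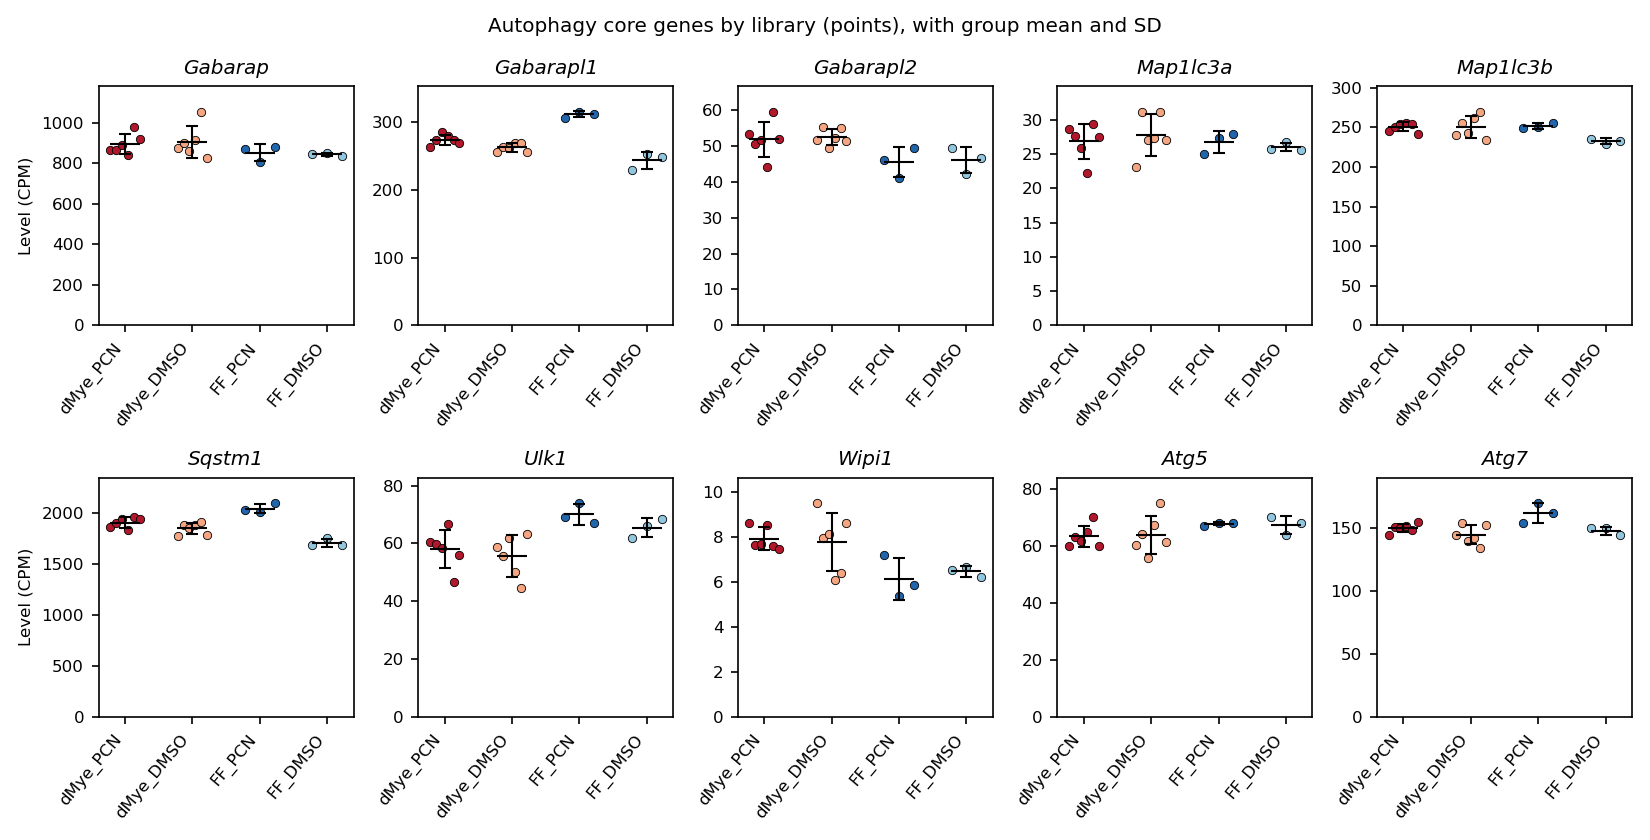
Level of each autophagy core gene in CPM, from 0, in the 18 libraries of dMye_PCN, dMye_DMSO, FF_PCN and FF_DMSO. Points are libraries, and the bars give the group mean and SD. Gabarapl1 lies at 307 to 316 CPM in FF_PCN, above every library of the other 3 groups, and Sqstm1 at 2006 to 2096 CPM, likewise.

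The promoters of Gabarapl1 and Sqstm1 are printed because these were the members that rose together. Each is the 250 bases before the RefSeq start site, on the strand of the gene, from the assembly GRCm38.p6. No capitals appear, since none of the 5 motifs searched was found in either window.
Gabarapl1 promoter, chr6:129532942-129533191, plus strand: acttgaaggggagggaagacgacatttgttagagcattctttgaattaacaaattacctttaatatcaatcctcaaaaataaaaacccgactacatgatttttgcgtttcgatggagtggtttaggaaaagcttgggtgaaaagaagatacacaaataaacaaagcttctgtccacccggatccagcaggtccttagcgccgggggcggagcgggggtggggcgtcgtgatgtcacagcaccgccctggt
Sqstm1 promoter, chr11:50210821-50211070, minus strand: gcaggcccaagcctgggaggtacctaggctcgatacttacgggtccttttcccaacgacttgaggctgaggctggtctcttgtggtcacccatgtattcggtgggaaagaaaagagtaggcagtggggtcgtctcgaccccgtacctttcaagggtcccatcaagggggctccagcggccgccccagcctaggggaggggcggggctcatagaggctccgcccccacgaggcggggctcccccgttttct

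The 5 motifs were searched on both strands in windows of 300 bases (250 before to 50 after the start site), matched by symbol for 9 of the 10 genes, all but Map1lc3a. The first was CACGTG, the E-box core bound by TFEB and TFE3 among others, found in 7.15% of the 32851 windows of all genes. TCACGTGA, the palindromic core of the CLEAR element, contains CACGTG and was found in 0.974%. TGACNNNGC, the core of the antioxidant response element, was found in 12.4%. TTGCATCA, an amino acid response element core, was found in 0.895%, and GTAAACA, a FoxO core, in 3.65%. Among the members, Atg5 and Atg7 held CACGTG and Map1lc3b held TGACNNNGC. None of the 9 member windows held TCACGTGA, TTGCATCA or GTAAACA. The 2 E-box windows of 30 bases are shown with CACGTG in capitals.
Atg5 window, chr10:44268313-44268342, plus strand: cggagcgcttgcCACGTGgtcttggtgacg
Atg7 window, chr6:114670952-114670981, plus strand: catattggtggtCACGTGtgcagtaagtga
The motif began 14 bases before the RefSeq start site of Atg5 and 132 bases before that of Atg7, whose RefSeq window lies inside the longer annotated gene. Neither Atg5 nor Atg7 was called under PCN in either genotype, and a match to these letters is a description of the sequence only.

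In dMye macrophages PCN changed none of the 10 members. Gabarapl1 had 263, 274 and 286 CPM (lowest, median and highest of 6) in dMye_PCN, against 256, 263 and 270 CPM in dMye_DMSO. Sqstm1 had 1830, 1921 and 1963 CPM in dMye_PCN, against 1769, 1868 and 1912 CPM in dMye_DMSO. For both genes the groups overlapped, with the highest libraries in dMye_PCN and the lowest in dMye_DMSO. Gabarapl1 had a log2 fold change of 0.06 (SE 0.04, adjusted p = 0.52) and Sqstm1 one of 0.04 (SE 0.04, adjusted p = 0.63).

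The largest log2 fold change of any member in dMye was 0.06 in size. By edgeR 0 members were called, 0 had an unadjusted p under 0.05, and DESeq2 and limma-voom also called 0; of all genes tested, 2.08% were called, 0.940% higher and 1.14% lower. The lowest and highest bounds of the 10 intervals of 95% were 0.872-fold for Map1lc3a and 1.16-fold for Wipi1. For Gabarapl1 the interval was 0.988 to 1.10, and for Sqstm1 0.980 to 1.08, below the 1.30-fold and 1.21-fold of FF. No member had groups without overlap, a condition that 2.33% of all tested genes met.

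The PCN effect on Gabarapl1 was smaller in dMye than in FF. Its log2 fold change was 0.06 in dMye and 0.38 in FF, a difference of -0.32 (SE 0.07, edgeR interaction term, adjusted p = 0.02). This was the only member called of 10, where 1.42% of all genes tested were called. Without FF_DMSO 1 the adjusted p was 0.08, and without FF_PCN 2 it was 0.056. FF_DMSO 1 was the lowest of all 18 libraries for Gabarapl1 and FF_PCN 2 the highest.

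For Sqstm1 the log2 fold changes were 0.04 in dMye and 0.28 in FF, and the difference of -0.24 (SE 0.06, adjusted p = 0.065) missed the threshold. DESeq2 called it (adjusted p = 0.0067), as did edgeR without dMye_DMSO 6 (0.04) or without dMye_DMSO 5 and 6 together (0.035), and over all alternatives the adjusted p reached 0.16. For the other 8 members the differences lay between -0.14 for Map1lc3b and 0.08 for Wipi1, with adjusted p between 0.45 and 0.97. A difference in this contrast includes that of sex, which followed genotype.

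**Figure D3:**
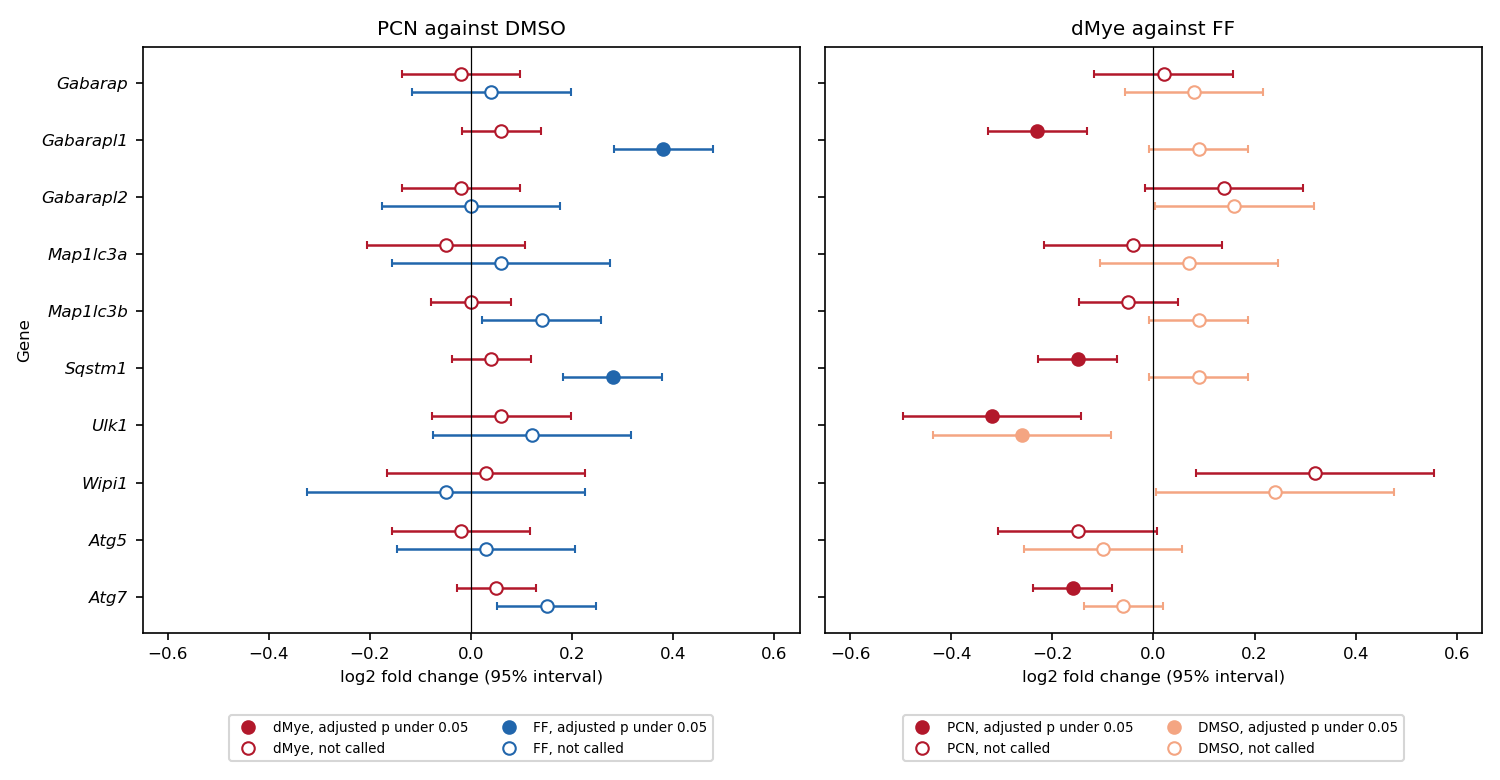
Log2 fold changes of the 10 genes with 95% intervals, for PCN against DMSO in dMye and FF (left) and for dMye against FF under PCN and DMSO (right). Filled points had an adjusted p under 0.05 by edgeR. Gabarapl1 and Sqstm1 are filled for PCN in FF, at 0.38 and 0.28, and no gene is filled for PCN in dMye.

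Between genotypes, Ulk1 was lower in dMye under both treatments, and Gabarapl1, Sqstm1 and Atg7 were lower in dMye under PCN. These comparisons share their libraries with those of PCN against DMSO, so the 4 sets of values are not independent. Under PCN, 4 of the 10 members were called, all lower in dMye, where 27.6% of all genes tested were called and 11.4% were called lower. Ulk1 had 46.8, 59.0 and 66.7 CPM (lowest, median, highest) in dMye_PCN, against 69.1, 73.9 and 66.9 CPM in FF_PCN. The groups did not overlap, but the highest dMye library came within 1 CPM of the lowest FF library. Its log2 fold change was -0.32 (SE 0.09, adjusted p = 0.0089).

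Gabarapl1 averaged 274 ± 8.03 CPM in dMye_PCN (n = 6) and 312 ± 4.55 in FF_PCN (n = 3), a log2 fold change of -0.23 (SE 0.05, adjusted p = 5.6e-04). Sqstm1 averaged 1906 ± 51.0 and 2042 ± 47.4 CPM in the same groups (log2 fold change -0.15, SE 0.04, adjusted p = 0.016). For both genes all dMye_PCN libraries lay below all FF_PCN libraries. Atg7 had 145, 150 and 155 CPM (lowest, median, highest) in dMye_PCN, against 154, 170 and 162 CPM in FF_PCN (log2 fold change -0.16, SE 0.04, adjusted p = 0.0094). Its groups overlapped at 1 library, the highest of dMye_PCN.

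Of these calls, that of Gabarapl1 held under every alternative. Upper-quartile scaling lost Sqstm1 (adjusted p = 0.15) and Atg7 (0.08). Leaving out FF_PCN 2 lost Ulk1 (0.072) and Atg7 (0.089), and leaving out FF_PCN 3 lost Sqstm1 (0.058). Wipi1 was the member that went the other way: it had 7.49, 7.68 and 8.65 CPM (lowest, median, highest) in dMye_PCN, against 7.19, 5.39 and 5.86 CPM in FF_PCN. Its groups did not overlap, with a log2 fold change of 0.32 (SE 0.12, adjusted p = 0.061), and it was called higher under upper-quartile scaling (adjusted p = 0.03), without FF_PCN 1 (0.032) and without dMye_DMSO 4 (0.043).

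Under DMSO, Ulk1 was the only member called, where 21.8% of all genes tested were called and 7.85% were called lower. It had 44.6, 57.2 and 63.1 CPM (lowest, median, highest) in dMye_DMSO, against 61.8, 66.1 and 68.3 CPM in FF_DMSO. The groups overlapped, with 2 dMye libraries above the lowest FF library. The means were 55.7 ± 7.18 CPM (n = 6) and 65.4 ± 3.33 (n = 3), a log2 fold change of -0.26 (SE 0.09, adjusted p = 0.039). The call was lost under upper-quartile scaling (adjusted p = 0.069), without FF_DMSO 1, 2 or 3 (0.05, 0.12 and 0.14) and without dMye_DMSO 2 or 4 (0.06 and 0.059).

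Gabarapl1 and Sqstm1 had a different order of genotypes under DMSO. For Gabarapl1 all 6 dMye_DMSO libraries (256 to 270 CPM) lay above the 3 FF_DMSO libraries (229 to 253 CPM), with a log2 fold change of 0.09 (SE 0.05, adjusted p = 0.2). For Sqstm1 the ranges were 1769 to 1912 CPM in dMye_DMSO and 1681 to 1755 CPM in FF_DMSO, also without overlap (log2 fold change 0.09, SE 0.05, adjusted p = 0.17). Neither passed the test, and 23.6% of all tested genes had groups without overlap in this comparison. The remaining 7 members had adjusted p between 0.15 and 0.63.

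Markers of mesothelial cells and fibroblasts moved with genotype. Their summed level over 10 genes was 604 to 709 CPM in dMye_PCN and 589 to 778 in dMye_DMSO, against 147 to 164 CPM in FF_PCN and 184 to 185 in FF_DMSO. In each treatment 9 of the 10 were called higher in dMye, and none was at 0. B cell markers summed to 5.89 to 9.41 CPM in dMye_PCN and 5.96 to 8.43 in dMye_DMSO, against 8.60 to 13.2 in FF_PCN and 19.8 to 24.2 in FF_DMSO. Of the 10 macrophage markers, 7 were called higher and Lyz2 lower in dMye under PCN, where 27.6% of all genes tested were called. Under DMSO 3 were called higher and 2 lower in dMye, where 21.8% of all genes tested were called. The part of these cells in the values of Ulk1, Atg7 and Wipi1 was not tested.

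The rest of the pathway was followed in 80 further autophagy genes in 7 lists, all tested. With PCN in FF, 15 rose and 4 fell, which is 23.8% of the 80, where 13.8% of all genes tested were called, 6.82% higher and 6.98% lower. The median log2 fold change was 0.09 over the 80 and 0.01 over all genes. The list of cargo receptors and related genes had 3 rises and 2 falls among 12 genes. Tollip rose to 291 ± 4.52 CPM in FF_PCN, against 211 ± 8.78 in FF_DMSO (log2 fold change 0.49, SE 0.06, adjusted p = 8.0e-06). Optn, the receptor optineurin that acts on bacteria and mitochondria, rose with a log2 fold change of 0.44 (SE 0.06, adjusted p = 3.7e-05), and Tax1bp1, a receptor of the same kind, with 0.34 (SE 0.07, adjusted p = 0.0014). Ncoa4, the receptor for ferritin, and Retreg1, a receptor for endoplasmic reticulum, were the 2 that fell.

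Among 9 genes of the conjugation cascade beside Atg5 and Atg7, only Atg12 was called. Atg12, the ubiquitin-like protein that is joined to ATG5, reached 185 ± 11.6 CPM in FF_PCN, against 137 ± 1.10 in FF_DMSO (log2 fold change 0.46, SE 0.06, adjusted p = 1.9e-05). Its partner Atg5 had 67.8 ± 0.551 and 67.5 ± 3.25 CPM in the same groups. Of 24 regulators, 7 rose and Sesn1, a sestrin, fell. The rises included Trp53inp2, which binds ATG8 proteins (0.44, SE 0.06, adjusted p = 1.9e-05), Flcn, the folliculin gene (0.33, SE 0.05, adjusted p = 3.4e-05), and Rragd, a GTPase of amino acid sensing (0.26, SE 0.05, adjusted p = 0.0024).

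In the class III PI3-kinase list of 8 genes, Uvrag (0.33) and Nrbf2 (0.26) rose and Pik3r4, the regulatory subunit VPS15, fell (-0.34). In the initiation list of 4, Atg13, a partner of ULK1, rose (0.16), in the fusion list of 14 Tecpr1 rose (0.20), and 0 of the 9 phagophore genes were called. These 5 calls were lost on leaving out 1 library. The adjusted p reached 0.14 for Atg13 and 0.26 for Tecpr1, and each was lost whichever of the 6 FF libraries was left out. Uvrag (up to 0.11) was lost without FF_DMSO 2, FF_PCN 2 or FF_PCN 3, Nrbf2 (up to 0.1) without FF_DMSO 1 or FF_PCN 2, and Pik3r4 (up to 0.16) on leaving out any FF library other than FF_PCN 2. The count of 19 calls became 11 without FF_DMSO 1 or FF_DMSO 3, and 12 without FF_PCN 1, 2 or 3.

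**Figure D4:**
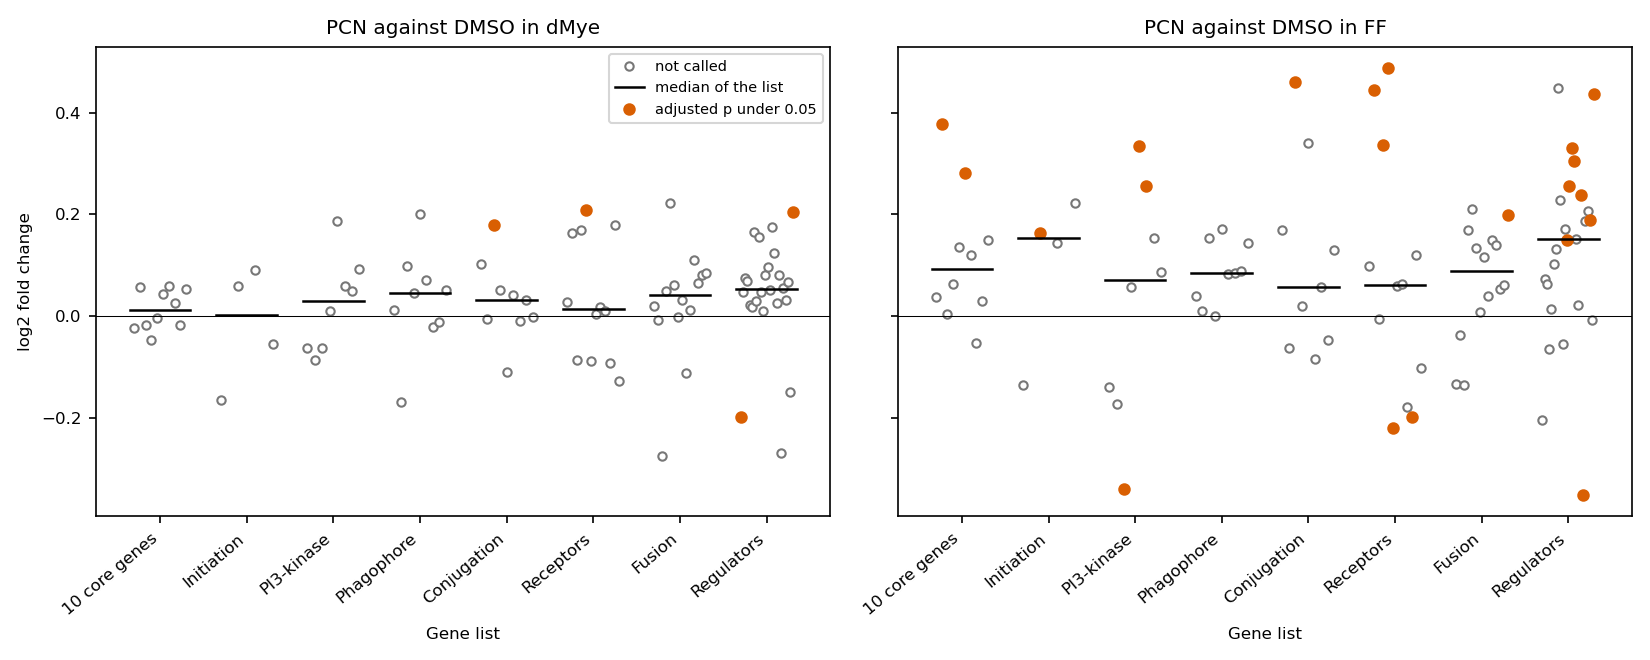
Log2 fold changes for PCN against DMSO in dMye (left) and FF (right), for the 10 autophagy core genes and the 80 further genes in 7 lists. Each point is a gene, filled where the adjusted p was under 0.05, and lines are list medians. In FF 15 of the 80 are filled above 0 and 4 below, and in dMye 3 above and 1 below.

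With PCN in dMye, 3 of the 80 genes rose and 1 fell, where 2.08% of all genes tested were called. The median log2 fold change was 0.04 over the 80 and -0.01 over all genes. Tollip rose with 0.21 (SE 0.04, adjusted p = 0.011), Trp53inp2 with 0.20 (SE 0.04, adjusted p = 0.01) and Atg12 with 0.18 (SE 0.04, adjusted p = 0.03), 3 genes that had also risen in FF. Tfeb, the transcription factor that drives autophagy and lysosome genes, fell to 73.8 ± 5.11 CPM in dMye_PCN, against 84.6 ± 4.65 CPM in the DMSO libraries, with a log2 fold change of -0.20 (SE 0.05, adjusted p = 0.033). In FF it had 75.5 ± 3.58 CPM with PCN and 88.4 ± 1.64 with DMSO (-0.20, SE 0.07, adjusted p = 0.051), and 13 of the 26 alternatives called it lower there too, among them DESeq2 (0.023), RLE scaling (0.041) and the compared groups alone (0.0077). The dMye call was lost with no filter (0.051), with the compared groups alone (0.084) and without dMye_DMSO 5 and 6 together (0.061), as well as without dMye_DMSO 2, 3 or 5 (0.069, 0.089 and 0.059) and without dMye_PCN 1, 4 or 6 (0.058, 0.085 and 0.079). Atg12 in dMye was lost with upper-quartile scaling (0.055), with the compared groups alone (0.071) and without dMye_DMSO 5 and 6 together (0.071), as well as without dMye_DMSO 1, 2 or 3 (0.074, 0.055 and 0.054) and without dMye_PCN 3, 4 or 6 (0.085, 0.08 and 0.061).

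Tfe3, the relative of Tfeb, had log2 fold changes of 0.05 in dMye and 0.07 in FF under PCN (adjusted p = 0.69 and 0.55). Of the 80, Flcn was the only gene called for the difference between the PCN effects (-0.28, SE 0.06, edgeR interaction term, adjusted p = 0.017). That is 1.25% of the 80, where 1.42% of all genes tested were called. The call was lost without FF_DMSO 1 or 3 (0.082 and 0.055) and without FF_PCN 2 or 3 (0.055 and 0.064). The level of Flcn was 183 ± 3.31 CPM in dMye_PCN and 177 ± 8.10 in dMye_DMSO, and 210 ± 1.93 in FF_PCN and 169 ± 2.89 in FF_DMSO.

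Between genotypes under PCN, 3 of the 80 were higher and 27 lower in dMye, with a median of -0.13. That is 37.5% of the 80, where 27.6% of all genes tested were called, 16.2% higher and 11.4% lower, with a median of 0.00. Under DMSO 2 were higher and 11 lower, with a median of -0.08. That is 16.2% of the 80, where 21.8% of all genes tested were called, 13.9% higher and 7.85% lower, with a median of 0.02. Under PCN the lower genes included Tax1bp1 (-0.41), Optn (-0.30), Tollip (-0.26), Atg12 (-0.25), Flcn (-0.25), Vps18 of the HOPS tether (-0.23) and Atg13 (-0.19). Mitf, a relative of Tfeb, was lower in dMye under PCN (86.9 ± 5.26 CPM, against 110 ± 7.40 in FF_PCN) and under DMSO (log2 fold change -0.40, SE 0.07, adjusted p = 1.6e-04). Ddit4, an inhibitor of mTOR, was higher in dMye_DMSO, at 5.33 ± 0.863 CPM, against 2.99 ± 0.306 in FF_DMSO. Upper-quartile scaling gave 4 higher and 16 lower under PCN. Leaving out FF_PCN 2 gave 17 calls and leaving out FF_PCN 3 gave 19, and under DMSO leaving out FF_DMSO 1, 2 or 3 gave 8, 7 and 7 calls in place of 13.

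Sqstm1 is also known as a target of NRF2 and of ATF4, so 2 lists of their targets were set beside it. Of 10 NRF2 targets, 2 rose and 1 fell with PCN in FF, where 13.8% of all genes tested were called. Slc7a11, a cystine transporter, rose to 109 ± 3.73 CPM in FF_PCN, against 75.0 ± 3.45 in FF_DMSO (log2 fold change 0.57, SE 0.09, adjusted p = 9.7e-05), and Hmox1, heme oxygenase, rose with 0.25 (SE 0.06, adjusted p = 0.0086). G6pdx fell with -0.43 (SE 0.06, adjusted p = 4.9e-05). Without FF_PCN 3 the adjusted p of Hmox1 was 0.054. In dMye only Slc7a11 was called, and it rose (0.30, SE 0.06, adjusted p = 0.011), where 2.08% of all genes tested were called. Between genotypes 3 were higher and 4 lower in dMye under PCN, where 27.6% of all genes tested were called. Under DMSO 2 were higher and 2 lower in dMye, where 21.8% were called.

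Of 12 targets of the integrated stress response, 4 rose and 1 fell with PCN in FF, where 13.8% of all genes tested were called, and 3 rose in dMye, where 2.08% were called. One of the 3, Ddit3, which encodes the transcription factor CHOP (0.22, SE 0.05, adjusted p = 0.036), was lost under 11 of the 26 alternatives, with adjusted p of up to 0.11 without dMye_PCN 3. Ppp1r15a, a phosphatase subunit that reverses the response, rose to 327 ± 16.4 CPM in FF_PCN, against 183 ± 5.08 in FF_DMSO (log2 fold change 0.86, SE 0.06, adjusted p = 3.6e-09). In dMye it rose with 0.34 (SE 0.04, adjusted p = 5.2e-05), and the difference of -0.52 (SE 0.07, adjusted p = 4.4e-04) was called. Atf3, a transcription factor of the response, rose in FF with 0.52 (SE 0.06, adjusted p = 2.4e-06) and in dMye with 0.20 (SE 0.04, adjusted p = 0.012, and 0.05 and no longer called without dMye_DMSO 5 and 6 together). Psat1 was the gene that fell in FF (-0.46, SE 0.07, adjusted p = 5.2e-05). The difference between the PCN effects was called negative for 3 of the 12 and positive for 1, where 1.42% of all genes tested were called. Beside Ppp1r15a, it was negative for Atf3 (-0.32, SE 0.07, adjusted p = 0.023) and Trib3, and positive for Psat1 (0.37, SE 0.08, adjusted p = 0.025). Over the alternatives its adjusted p reached 0.096 for Atf3 and 0.082 for Psat1. Between genotypes 4 of the 12 were higher and 5 lower in dMye under PCN. Of all genes tested, 16.2% were called higher and 11.4% lower in that comparison. Under DMSO 6 of the 12 were higher and 1 lower in dMye, where 13.9% of all genes tested were called higher and 7.85% lower.

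Within groups, Ulk1 and Wipi1 tended to deviate in the opposite direction to Gabarap and Sqstm1. The deviation of each library from its group mean of log2 CPM was compared between pairs of members over the 18 libraries, which share their library totals, as a description. Gabarap and Ulk1 had the most negative Pearson r of the 45 pairs, at -0.93, and Map1lc3b and Atg5 the most positive, at 0.80. Ulk1 had a median r of -0.66 with the other members and Wipi1 one of -0.49, against 0.53 for Gabarap and 0.45 for Sqstm1. Gabarapl1 had a median r of 0.06 and Atg7 one of -0.22. The r of Atg7 was -0.55 with Gabarap and -0.22 with Sqstm1, against 0.40 with Ulk1 and 0.13 with Wipi1.

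Library dMye_DMSO 5 was the highest of its group for Gabarap (1054 CPM), Map1lc3b (270), Sqstm1 (1912) and Atg5 (75.1) and the lowest for Ulk1 (44.6) and Atg7 (134). Without it the r of Gabarap and Ulk1 was -0.92 and that of Map1lc3b and Atg5 was 0.67. In dMye_PCN, library 5 was likewise highest for Gabarap (977 CPM) and lowest for Ulk1 (46.8), and library 4 lowest for Gabarap (838) and highest for Ulk1 (66.7). Libraries also differed by gene length over all genes. In dMye_DMSO 5, genes with up to 2824 bases of exon deviated by a median of 0.13 on the log2 scale and genes with 6801 or more by -0.19, and in dMye_PCN 5 the medians were 0.09 and -0.11. They were -0.10 and 0.09 in dMye_PCN 4 and -0.06 and 0.15 in dMye_DMSO 6. The exon length of Gabarap is 1844 bases, that of Wipi1 4410, that of Ulk1 6488 and that of Atg7 6968. Map1lc3b, the longest member at 7517 bases, was highest in dMye_DMSO 5 and had an r of 0.67 with Gabarap and -0.66 with Ulk1. These lengths join the exons of all annotated transcripts of a gene, 5 for Map1lc3b. The lengths of the transcripts present in the cells are not known here. The part of length in the members' values was not tested.

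**Figure D5:**
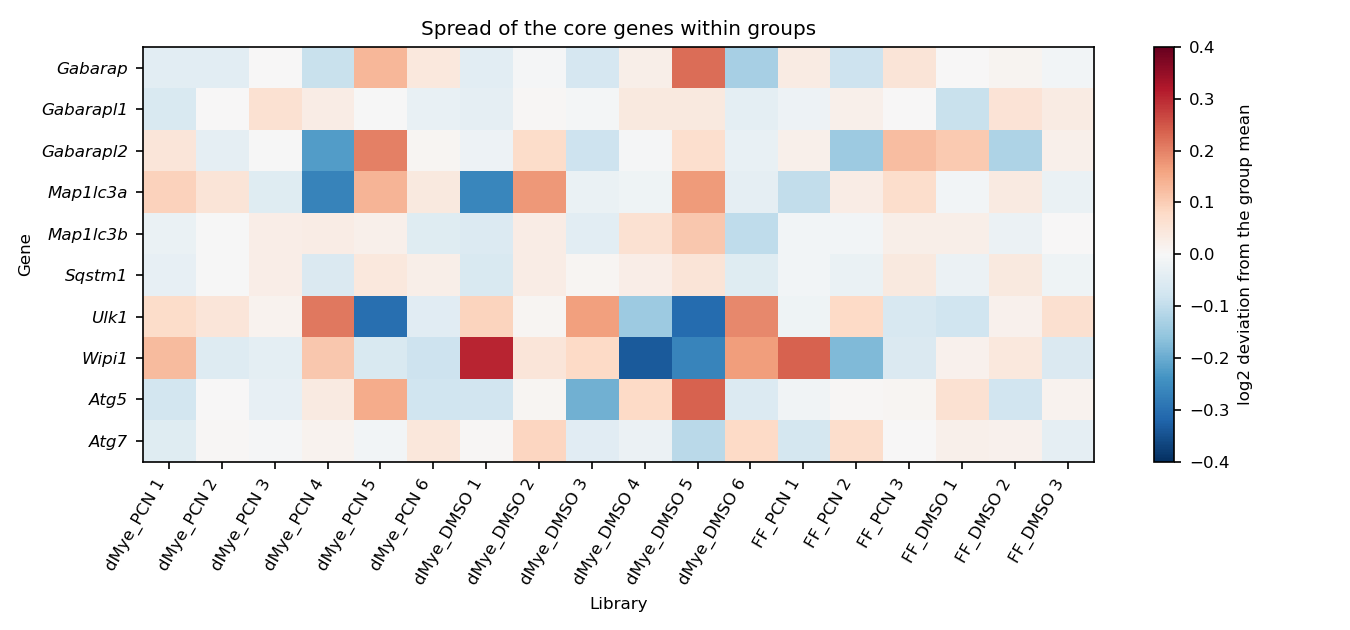
Deviation of each library from its group mean, in log2 CPM, for the 10 genes (down) in the 18 libraries (across), on a colour scale from -0.4 to 0.4. Libraries dMye_DMSO 5 and dMye_PCN 5 are high for Gabarap and low for Ulk1, and dMye_PCN 4 is the reverse.

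Across the 18 libraries, genes of at least 10 CPM were ranked by the Pearson r of their log2 CPM with 3 members. It is a description in which group differences are included. Candidates numbered 8255, and 8256 for Wipi1. The r within groups is given only for genes picked by the r over all libraries, which includes the same deviations. The closest to Sqstm1 were Hmga1 (r = 0.97, and 0.86 for deviations within groups), Tmem11 (0.94 and 0.68) and Trib3 (0.94 and 0.69). The closest to Gabarapl1 were Pea15a (0.94 and 0.75), Nfkbib (0.94 and 0.70) and Tmem11 (0.94 and 0.72), so Tmem11 was in both lists. The closest to Wipi1 were Myo1c (0.85 and 0.70), Knop1 (0.85 and 0.76) and Cbx5 (0.84 and 0.76). Trib3 is 1 of the 12 stress response targets. Over the same deviations, Gabarapl1 and Sqstm1 had an r of 0.46 with each other.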

How the data were processed

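The authors deposited 1 value for each gene in 18 libraries, taken here to be expected counts because many values are fractional and library totals differ. Build mm10 is named in the submitters' processing notes. Not given in the sources used here were the aligner, the quantifier, the annotation and any use of strand. Totals ran from 21993687 to 30228032. Rounded counts that passed filterByExpr entered 1 quasi-likelihood fit of 4 groups and 18 libraries (edgeR 4.0.16 under R 4.3.3, TMM, robust, no covariates). It gave 5 contrasts: the PCN effect in dMye and in FF, the dMye effect minus the FF effect, and dMye against FF under PCN and under DMSO. A call is a Benjamini-Hochberg adjusted p under 0.05 over the 13409 genes tested. SE is the size of a log2 fold change over the square root of F. Levels are CPM of unscaled totals, as mean ± SD. The biological coefficient of variation was 9.7%. The fit was tested on simulated data.

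Positions and exon lengths came from GENCODE M21 (GRCm38), matched by symbol, and promoters from RefSeq (GRCm38.p6). An exon length was found for 98.8% of the tested genes. The table holds 26 date-like symbols, which were kept and are not named.

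Members, lists, markers and motifs were chosen with earlier results of these data known, so none is independent evidence. The text names all members in every contrast, up to 3 called genes of a list by smallest p, Tfeb, Tfe3 and Nr1i2, and the 3 genes most like Sqstm1, Gabarapl1 and Wipi1. Not every gene so selected is printed, and an allele that all 4 groups carry is not reported here. Ncoa4, Retreg1, Sesn1, Marco, Lyz2, Cd68 and Mrnip were named after their values were seen, and 1700101I11Rik for its overlap with Gabarapl1.

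The fit was repeated with RLE or upper-quartile scaling, without a filter, with 1 CPM required in 6 libraries, with DESeq2 1.42.0, with limma-voom (limma 3.58.1), on the compared groups alone, without dMye_DMSO 5 and 6, and without each library in turn. For the 80 pathway genes and the named list genes these repeats were added after their values were seen.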

Additional observations from a re-analysis of the deposited data

Results flagged for a closer look

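Gabarapl1 differed between genotypes in its PCN effect, by the interaction term of the edgeR fit. The log2 fold change was 0.06 in dMye and 0.38 in FF, a difference of -0.32 (SE 0.07, adjusted p = 0.02), and the adjusted p ranged from 3.4e-04 with DESeq2 to 0.08 without FF_DMSO 1. For the members in dMye, the gap of the most extreme library was compared with the range of its group in 20 groups of 6 libraries (10 genes in dMye_PCN and dMye_DMSO), and 0 passed the 95% critical value of Dixon's test, where chance alone passes about 1 in 20. The highest ratio was 0.597, for Gabarap in dMye_DMSO 5, and not passing does not show that a library is like the others.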

How the results depend on the processing

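The 26 alternatives (25 for the difference between the PCN effects) gave 1218 values for the members that kept direction and side of the threshold, 13 that lost a call, 8 that gained one and 51 that changed sign, the last all of uncalled members. For PCN in FF, Gabarapl2 (0.00) became -0.03 with upper-quartile scaling, -0.02 with no filter, -0.01 with the compared groups alone or without dMye_DMSO 5 and 6, and -0.00 with RLE, the stricter filter or DESeq2, and Atg5 became -0.01 with upper-quartile scaling. For PCN in dMye, Map1lc3b (-0.00) became 0.00 with RLE, no filter or DESeq2 and without dMye_DMSO 5 and 6, which also gave 0.01 for Gabarap and 0.03 for Atg5. For the difference, Gabarapl2 became 0.00 with no filter and without dMye_DMSO 5 and 6, and Atg5 0.02 without those 2. For dMye against FF under PCN, upper-quartile scaling gave 0.01 for Map1lc3a and 0.00 for Map1lc3b.

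Over the 18 fits that left out 1 library, log2 fold changes that changed sign ranged, for PCN in dMye, from -0.06 to 0.04 for Gabarap, -0.06 to 0.02 for Gabarapl2, -0.03 to 0.03 for Map1lc3b, -0.03 to 0.09 for Wipi1 and -0.05 to 0.04 for Atg5. For PCN in FF they ranged from -0.00 to 0.07 for Gabarap, -0.07 to 0.06 for Gabarapl2, -0.19 to 0.02 for Wipi1 and -0.01 to 0.05 for Atg5. The difference ranged from -0.09 to 0.01 for Gabarap, -0.08 to 0.06 for Gabarapl2 and -0.08 to 0.03 for Atg5. For dMye against FF under PCN the ranges were -0.03 to 0.04 for Gabarap and -0.09 to 0.01 for Map1lc3a.

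The member called for the difference became 2 members with DESeq2 and without dMye_DMSO 5 and 6, and 0 to 2 on leaving out 1 library. For dMye against FF, the 1 member under DMSO became 0 with upper-quartile scaling and 0 to 1 on leaving out 1 library, and the 4 under PCN became 2 to 5. Of the 80 other pathway genes, calls for PCN in dMye (4) were 9 with DESeq2, 2 with the compared groups or without dMye_DMSO 5 and 6, and 2 to 7 on leaving out 1 library. For PCN in FF (19) they were 11 to 22. For the difference (1) they were 4 with DESeq2, 3 without dMye_DMSO 5 and 6, and 0 to 3. For dMye against FF under DMSO (13) they were 20 with DESeq2, 8 with the compared groups and 7 to 18, and under PCN (30) 17 to 35. Over all genes, DESeq2 called 4.36% for PCN in dMye and 3.18% for the difference, against 2.08% and 1.42% with edgeR, and edgeR on the compared groups alone called 1.14% and without dMye_DMSO 5 and 6 1.34% for PCN in dMye. Leaving out 1 library gave 1.02% to 2.77% for PCN in dMye, 8.80% to 16.2% for PCN in FF and 0.308% to 1.95% for the difference, each range with its lowest value without dMye_PCN 3, FF_DMSO 1 and FF_DMSO 1 in that order. Upper-quartile scaling moved the share of calls that were higher to 31.2% (45.2% with TMM) for PCN in dMye, 38.2% (49.4%) for PCN in FF, 74.8% (58.8%) for dMye against FF under PCN and 76.0% (64.0%) under DMSO, and no filter moved that of the difference to 67.3% (52.6%). The cause of these changes was not tested.

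No paired analysis was possible because the labels give no replicate number that the groups share. Wipi1 rested on the fewest counts of the members, 463 to 1240 per group, and its 95% interval for PCN in FF ran from 0.794-fold to 1.17-fold. The count table gives no split by exon, transcript or strand.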
